A study of Neurospora crassa with 12 samples.

Results

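Among the genes that a germinating conidium of Neurospora crassa expressed strongly, 186 held almost the same share of the counted transcripts from the freshly wetted spore to the stage sampled as the branching hypha. A gene was taken as abundant and steady when its mean level reached 100 counts in each 1000000 counted (CPM) in each of 4 stages and the highest stage mean was at most 1.2 times the lowest. The rule selected 186 of the 1173 genes that reached 100 CPM in every stage (15.9%), which is 1.76% of the 10592 genes counted. The genes were chosen by their stage means, so their steadiness is described below and not tested. CPM is a share of the counted transcripts, and a steady gene is one that kept pace with their total. In bulk RNA, fewer cells of a type and less RNA per cell cannot be told apart.

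A conidium is the dormant asexual spore of the fungus, and it carries stored mRNA that is used when growth resumes. On a moist nutrient surface it takes up water, swells, sends out a germ tube by polar growth, and branches into a hyphal network. Genes for processes that every growing cell needs, such as protein import into mitochondria, ion pumping and basic signalling, are often called housekeeping genes, and those whose level holds steady are sought as reference genes for transcript measurement.

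The libraries came from the wild-type strain FGSC2489 (mating type A), germinated at 37 °C on cellophane-covered plates of Bird medium, a defined medium, under continuous white light, with conidia from Bird cultures. In the study's methods, stage 1 is the fresh conidium, stage 2 the first polar growth, stage 3 the germ tube at a doubling of the long axis, and stage 4 the first branching hypha. Each stage had 3 libraries, each of tissue gathered from several plates in one collection process, so p-values measure only the spread between these samples. The titles place the stages at 15, 60, 120 and 240 minutes while the time tags give 15, 120, 240 and 360 minutes, and a source label names potato dextrose agar (PDA). The study's methods give the first series for Bird medium at 37 °C and the second for PDA at a lower temperature. The grouping into 4 stages is the same under both series.

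Library totals ran from 42996748 to 71990884 counts. The 2 ribosomal RNA rows that the rule leaves out of the totals took 1.68% to 11.3% of the counts in 11 libraries and 37.7% in stage 3 replicate 2. The summed level of 5 conidial markers (eas, con-6, con-8, con-10 and con-13) was 12091 to 15346 CPM in stage 1, 97.6 to 102 CPM in stage 2, 10.3 to 12.1 CPM in stage 3 and 79.9 to 112 CPM in stage 4, and con-13 was at 0 from stage 2 on. The 4 markers of sexual tissue (per-1, poi-2, asd-1 and asd-3) summed to 95.9 to 151 CPM in stage 1 and to at most 8.85 CPM later. Nearly all of the stage 1 sum was poi-2, at 146, 92.9 and 92.5 CPM. This mating response gene is described by the study as expressed in conidia too. Stage 1 replicate 1 stood apart from the other stage 1 libraries, with a median absolute log2 difference of up to 0.18 over the abundant genes, against 0.05 between replicates 2 and 3. Stage 3 replicate 2 also stood apart, at 0.14 and 0.15 from the other stage 3 libraries, against 0.03 between stage 3 replicates 1 and 3.

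The stage 4 libraries lay among those of stage 2, and whether this reflects the labels or the cells cannot be told apart here, which holds for every stage 4 value below. Over the 1173 abundant genes, single libraries of the 2 stages differed by a median absolute log2 value of 0.02 to 0.07, against 0.03 to 0.05 within stage 2 and 0.07 to 0.08 within stage 4. edgeR called 0 of 8330 genes between these stages (136 had an unadjusted p below 0.05), and DESeq2 called 2. Among the 186 steady genes, 0 were called by either tool, 0 had an unadjusted p below 0.05, and the CPM ranges of the stages overlapped in 177. The share of all genes called in this contrast was 0%. Applied without stage 4 the rule selected 198 genes, and without stage 2 it selected 200. Applied without stage 1 it selected 1107, and without stage 3 it selected 316.

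The level of the 186 genes, as the mean of their stage means, ran from 102 to 3954 CPM with a median of 190.5 CPM, against a median of 269 CPM for the other 987 abundant genes. CPM is not corrected for transcript length, so these bands do not rank transcripts by number. Of the 186 genes, 22 exceeded 1000 CPM, 38 lay between 300 and 1000 CPM, and 126 between 100 and 300 CPM. They made up 13%, 11.6% and 18.6% of the abundant genes of the same bands. Their ratio of highest to lowest stage mean ran from 1.02 to 1.2 with a median of 1.12, while the other abundant genes had a median of 1.66 and reached 33.1. The ratio was at most 1.05 in 9 genes, at most 1.1 in 68, and above 1.15 in 56.

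**Figure D1:**
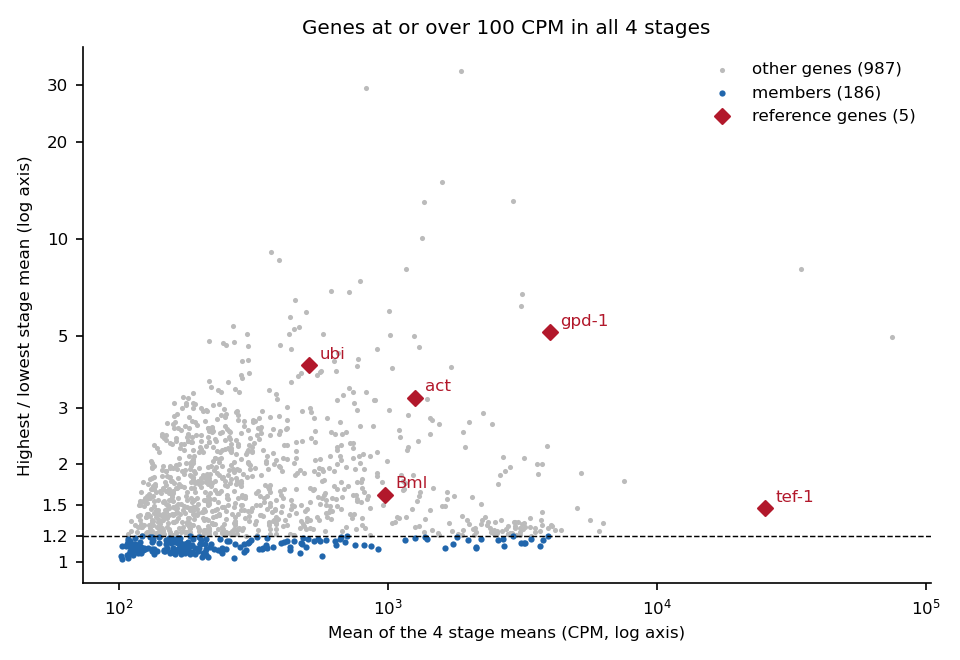
Mean level (x axis, CPM, log scale) against the ratio of highest to lowest stage mean (y axis, log scale) for the 1173 genes at or over 100 CPM in every stage. The 186 steady genes lie on or below the dashed line at 1.2 across the range of levels, and 5 widely used reference genes (diamonds) lie above it, at 1.46 to 5.13.

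The limit of 1.2 falls in a dense part of the distribution, since 98 abundant genes had a ratio between 1.2 and 1.25. NCU11259, NCU02289 and NCU01452 lay just inside it at 1.197, 1.198 and 1.199. NCU06054, NCU01650 and NCU01515 lay just outside at 1.201, 1.202 and 1.203. At the level floor, the lowest stage means of the steady genes NCU01767, pmr-1 and NCU02758 were 100.2, 100.4 and 101.1 CPM. NCU02282, nuc-2 and NCU09442, also within 1.2, missed the floor with lowest stage means of 99.7, 99.3 and 99.2 CPM.

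None of 5 genes that are often used as references in fungal transcript work met the rule, which 15.9% of all abundant genes met. At that share, a count of 0 among 5 genes does not set them apart. The gene for the translation elongation factor EF-1 alpha, tef-1, came nearest with a ratio of 1.46, and its stage means were 19488, 28269, 24729 and 28522 CPM. The beta-tubulin gene Bml had a ratio of 1.61 (721, 1012, 1164 and 993 CPM). The actin gene act had 3.22, and its level rose over the first step, from 476 ± 79.6 to 1533 ± 172 CPM (SD, n = 3; log2 change 1.61, SE 0.13, edgeR adjusted p = 8.1e-08). The glyceraldehyde-3-phosphate dehydrogenase gene gpd-1 rose further there, from 999 ± 83.7 to 5025 ± 50.4 CPM (SD, n = 3; log2 change 2.25, SE 0.10, edgeR adjusted p = 1.0e-10). The ubiquitin gene ubi went the other way, with means of 964 ± 109, 237 ± 2.39 and 588 ± 58.5 CPM in the first 3 stages (SD, n = 3), and its log2 change between stages 1 and 2 was -2.10 (SE 0.08, edgeR adjusted p = 1.3e-11). These directions between stages 1 and 2 held under TMM scaling, DESeq2 size factors and the library totals of the rule. Between these stages 4 of the 5 rose and 1 fell by the edgeR test, beside 39.4% and 37.9% of all genes. In stages 3 and 4 the means of act were 1532 and 1498 CPM and those of gpd-1 4806 and 5128 CPM, near their stage 2 means.

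A symbol was available for 32 of the 186 genes. The other 154 are known here by their locus number alone and are given no role. The symbols sort into mitochondrial genes (8), signalling genes (7), regulators of transcription and nutrient use (5), genes of ion pumps, organelles and metal binding (5), genes of amino acid and one-carbon metabolism (4), and 3 others.

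The 8 mitochondrial genes spanned 141 to 819 CPM, with ratios from 1.08 to 1.17. 3 genes of the import machinery were among them. The gene tom40 (NCU01179, chromosome V, 3147220 to 3149869), which encodes the channel of the outer membrane, was at 345, 315 and 334 CPM in stage 1, at 361, 365 and 363 CPM in stage 2, at 380, 338 and 367 CPM in stage 3, and at 367, 373 and 352 CPM in stage 4. Its stage 1 libraries overlapped those of stage 3 only, and its ratio was 1.1. The gene tim23, for the channel of the inner membrane, was at 184 to 197 CPM in stage 1, 175 to 182 CPM in stage 2, 205 to 212 CPM in stage 3 and 172 to 189 CPM in stage 4. Stage 3 stood above the other stages in every library of tim23, and the ratio was 1.17. The gene tim14, for a J protein of the import motor, had stage means of 165 ± 14.1, 161 ± 0.384, 174 ± 10.4 and 167 ± 6.46 CPM (SD, n = 3) and a ratio of 1.09.

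Of 18 import genes by symbol, 13 were abundant and 3 of these met the rule, beside 15.9% of all abundant genes. The other import genes missed it, as most abundant genes did. The 13 had a median ratio of 1.28. Of the 18, between stages 1 and 2, 4 rose and 9 fell by the edgeR test, beside 39.4% of all genes called higher and 37.9% called lower. The tim23 partner tim17 had a ratio of 2.04, with stage means of 282, 140, 193 and 138 CPM, and tim50, a receptor of the same complex, had 1.78, with 149, 226, 265 and 229 CPM. The outer membrane receptors tom20 and tom22 had ratios of 1.22 and 1.26.

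Both alternative NADH dehydrogenases that were abundant met the rule, beside 15.9% of all abundant genes, in a list chosen with earlier results known. These enzymes pass electrons to ubiquinone without pumping protons. The gene nde-2 had stage means of 881 ± 83.6, 782 ± 14.1, 802 ± 23.8 and 810 ± 54.4 CPM (SD, n = 3), and ndi-1 had 277 ± 29.7, 306 ± 3.75, 307 ± 26.6 and 317 ± 13.5 CPM (SD, n = 3). The low value of ndi-1 came from stage 1 replicate 1, at 244 CPM against 302 and 286 CPM in the other stage 1 libraries. The weakly expressed nde-1 and nde-3 had stage means of 11 to 27.3 CPM and ratios of 1.75 and 2.26. The acyl carrier protein acp-1, a subunit of complex I, had a ratio of 1.13, and cyt-21, a protein of the mitochondrial ribosome, had 1.14.

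The gene iap-1, for the i-AAA protease of the inner mitochondrial membrane, was steady only as a mean. It was at 155, 234 and 212 CPM in stage 1 and at 236, 138 and 237 CPM in stage 3, while the stage 2 and stage 4 libraries lay between 184 and 201 CPM. One low library in each of stages 1 and 3 (replicate 1 and replicate 2) set the spread. Its ratio was 1.08, and without stage 3 replicate 2 it was 1.25.

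The 7 signalling genes had ratios from 1.07 to 1.17. The catalytic subunit gene of casein kinase 2, cka, stood at 284 to 321 CPM in stage 1, 297 to 300 CPM in stage 2, 276 to 283 CPM in stage 3 and 289 to 303 CPM in stage 4, and its stages overlapped except stage 3 with the rest. The genes of its regulatory subunits, ckb-2 and ckb-1, had ratios of 1.27 and 1.40. Both fell between stages 1 and 2 by the edgeR test, beside 37.9% of all genes and 54.5% of the other abundant genes. The phosphatase genes pph-3 and pzl-1 had ratios of 1.14 and 1.17, and without stage 3 replicate 2 that of pzl-1 was 1.204. The adenylyl cyclase gene cr-1 (NCU08377, chromosome I, 5564501 to 5573857), whose product makes cyclic AMP, had stage means of 178 ± 12.6, 165 ± 5.51, 176 ± 21 and 169 ± 12.6 CPM (SD, n = 3) and a ratio of 1.08.

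Of 6 listed genes for calcium pumps, the regulatory subunit of calcineurin and calmodulin, 4 were abundant and 3 of these were steady. The list was chosen with earlier results known, and 15.9% of all abundant genes were steady. Between stages 1 and 2, 3 of the 6 rose by the edgeR test, beside 39.4% of all genes. The gene pmr-1, for a calcium and manganese pump of the Golgi, had stage means of 104 ± 8.39, 103 ± 2.04, 101 ± 9.27 and 100.4 ± 7.09 CPM (SD, n = 3), a ratio of 1.04. The calcium ATPase gene nca-1 and the regulatory subunit gene of calcineurin, cnb-1, had ratios of 1.1 and 1.15, and without stage 1 replicate 1 that of cnb-1 was 1.25. Calmodulin, the calcium sensor that activates calcineurin, was not steady. Its gene cmd had stage means of 134, 344, 353 and 340 CPM, a ratio of 2.63. Another pump gene, nca-2, had stage means of 71.1, 215, 143 and 222 CPM.

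The steady genes cmt, pex13, ro-3, set-3 and gch-1 ranged from 103 to 661 CPM over the 12 libraries. The copper metallothionein gene cmt had stage means of 504 ± 62.2, 547 ± 59.9, 593 ± 59.5 and 556 ± 69.7 CPM (SD, n = 3), its stages overlapped, and without stage 1 replicate 1 its ratio went from 1.18 to 1.26. The gene pex13, for a component of protein import into peroxisomes, had a ratio of 1.19, and ro-3, for a subunit of dynactin, had 1.09. The genes set-3 and gch-1 had ratios of 1.15 and 1.1.

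The 5 regulators included regulators of nitrogen, sulfur and phosphate use. The GATA factor gene nit-2, which turns on genes for secondary nitrogen sources, was at 142, 183 and 190 CPM in stage 1, 157 to 161 CPM in stage 2, 181 to 194 CPM in stage 3 and 153 to 168 CPM in stage 4. Stage 3 lay above stages 2 and 4, and stage 1 overlapped all the others. The gene cys-3, for the bZIP factor of sulfur uptake, moved in the same order, with stage means of 445 ± 21.2, 391 ± 12.5, 453 ± 11 and 402 ± 16.1 CPM (SD, n = 3). The gene preg, for a cyclin that represses the phosphate pathway, had 133 ± 5.36, 136 ± 4.57, 132 ± 10.6 and 139 ± 3.95 CPM (SD, n = 3), a ratio of 1.05, and its stages overlapped. Of the 10 cys genes 7 were abundant, and 2 of these, cys-3 and cys-4, were steady, beside 15.9% of all abundant genes. Between stages 1 and 2, 4 of the 10 rose and 4 fell by the edgeR test, beside 39.4% and 37.9% of all genes. The gene cys-4 had stage means of 872 ± 92.8, 910 ± 28.6, 812 ± 116 and 860 ± 5.99 CPM (SD, n = 3). Without stage 3 replicate 2 the ratio of nit-2 went from 1.18 to 1.21, past the limit.

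In amino acid and one-carbon metabolism, for, the serine hydroxymethyltransferase gene, had the highest level among the genes with symbols. It was at 2395, 3037 and 3072 CPM in stage 1, at 2482 to 2562 CPM in stage 2, at 2886, 2563 and 2948 CPM in stage 3, and at 2572 to 2653 CPM in stage 4. Stages 2 and 4 were tight, and stages 1 and 3 each held one library near the stage 2 and 4 levels. The histidine synthesis genes his-2 and his-3 were steady, at 317 to 363 and 457 to 673 CPM over the 12 libraries, while his-6 had stage means of 842, 288, 495 and 291 CPM. Like iap-1, his-3 was low in stage 1 replicate 1 (467 CPM) and stage 3 replicate 2 (457 CPM), and its ratio of 1.16 was 1.29 without the first and 1.25 without the second. Without stage 1 replicate 1 the ratio of for was 1.21.

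The vacuolar ATPase has a peripheral V1 sector, which splits ATP, and a membrane sector Vo, which conducts protons through the membrane of the vacuole. The steady gene vma-3 (NCU01332, chromosome V, 3684275 to 3686333) encodes the proteolipid of the Vo ring. It was at 339, 286 and 305 CPM in stage 1, 307 to 320 CPM in stage 2, 359 to 385 CPM in stage 3 and 295 to 331 CPM in stage 4, so that stage 3 stood above the rest. Its ratio was 1.19, and without stage 1 replicate 1 it was 1.25, past the limit. The Vo genes vma-16 and vma-9 had ratios of 1.13 and 1.15 and missed the rule on the floor of 100 CPM alone, with stage means of 82.9 to 93.5 and 62.7 to 72.2 CPM. The other Vo genes vph-1, vma-11 and vma-6 had ratios of 1.33, 1.58 and 1.91. All 8 V1 genes (vma-1, vma-2, vma-4, vma-5, vma-7, vma-8, vma-10 and vma-13) rose between stages 1 and 2 by the edgeR test, with log2 changes from 1.07 for vma-8 (SE 0.09, adjusted p = 9.6e-08) to 2.70 for vma-13 (SE 0.07, adjusted p = 6.5e-13) and a median of 2.09. Of the 6 Vo genes, vma-6 rose by a log2 change of 0.63 (SE 0.07, adjusted p = 1.6e-06) and vma-11 by 0.39 (SE 0.10, adjusted p = 0.0025). The values of vma-9, vph-1, vma-3 and vma-16 were 0.11, 0.06, -0.06 and -0.07 (SE 0.06 to 0.11), and these 4 did not pass the test. Of all genes tested, 39.4% were called higher between these stages, so 2 of 6 Vo genes is near that share. The median over the Vo genes was 0.09, against 0.01 over all genes tested. The sectors were compared after the values of the subunits had been seen, and the difference between them was not tested. Under DESeq2 size factors and the totals of the rule, the median was 2.03 and 2.16 for V1 and 0.03 and 0.16 for Vo, and the same numbers of genes rose (8 and 2).

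**Figure D2:**
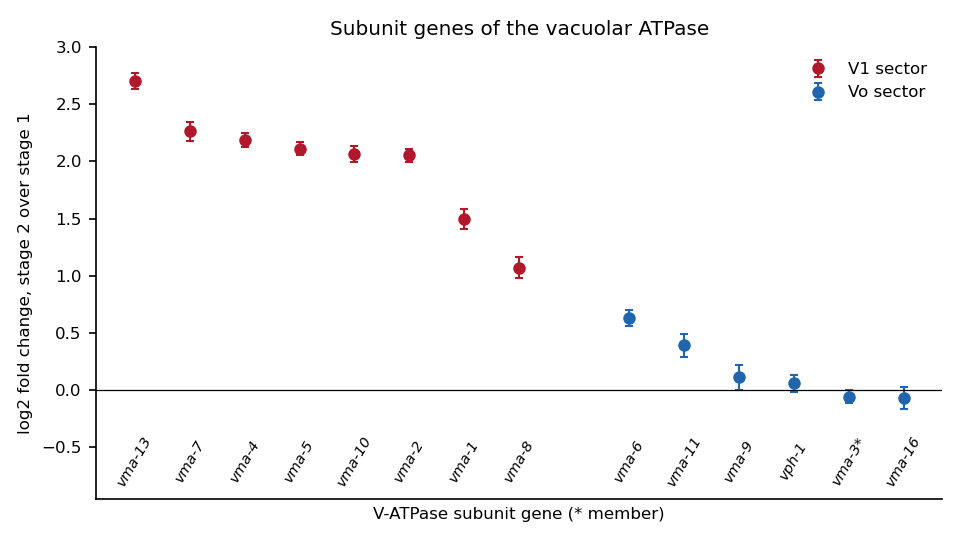
Log2 fold change of each vacuolar ATPase subunit gene from stage 1 to stage 2 (y axis) with its standard error (bars), from edgeR over 12 libraries. The 8 V1 genes lie between 1.07 and 2.70 and the 6 Vo genes between -0.07 and 0.63, with the steady gene vma-3 (asterisk) at -0.06.

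The 10 steady genes of highest level were NCU01452, NCU00413, NCU07420, NCU08620, NCU00294, NCU07829, NCU05804, NCU00475, for and NCU04779. NCU01452 (chromosome V, 4694538 to 4696530) was at 3373, 3590 and 3709 CPM in stage 1, 4282, 4300 and 4213 CPM in stage 2, 3745, 3839 and 3692 CPM in stage 3, and 4074, 4316 and 4308 CPM in stage 4. Every stage 2 and stage 4 library of NCU01452 lay above every library of stages 1 and 3. NCU04779 repeated this, at 2406 to 2508 CPM in stage 1, 2859 to 2936 CPM in stage 2, 2479 to 2523 CPM in stage 3 and 2777 to 2970 CPM in stage 4. NCU07420 ran between 3346 and 3972 CPM over the 12 libraries.

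Most of the genes above 1000 CPM shared this order, which was looked at after the data had been seen. In 19 of the 22 (86.4%), the means of stages 2 and 4 exceeded those of stages 1 and 3, as they did in 75 of the 147 other abundant genes above 1000 CPM (51.0%). Stage 1 alone was lowest in 0 of the 22 and in 38 of the 147. The limit of 1.2 was set on these same stage means and shapes both shares, so nothing is read from their difference. With DESeq2 size factors 15 of the 22 had it. The median log2 deviations of the 22 from their own level were -0.09, 0.09, -0.08 and 0.07 in stages 1 to 4. Between 300 and 1000 CPM, 9 of 38 steady genes had this order. Between 100 and 300 CPM 26 of 126 (20.6%) had it, and 46 (36.5%) had the opposite order. The 9 cytosolic ribosomal protein genes with symbols were all abundant and all past the limit, with ratios from 1.21 to 1.35. Of all abundant genes, 15.9% were within it. By the edgeR test 8 of the 9 rose between stages 1 and 2, beside 39.4% of all genes, and 8 fell between stages 2 and 3, beside 18.2%. With DESeq2 size factors 6 of the 9 rose and 8 fell, and with the totals of the rule 8 rose and 6 fell.

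**Figure D3:**
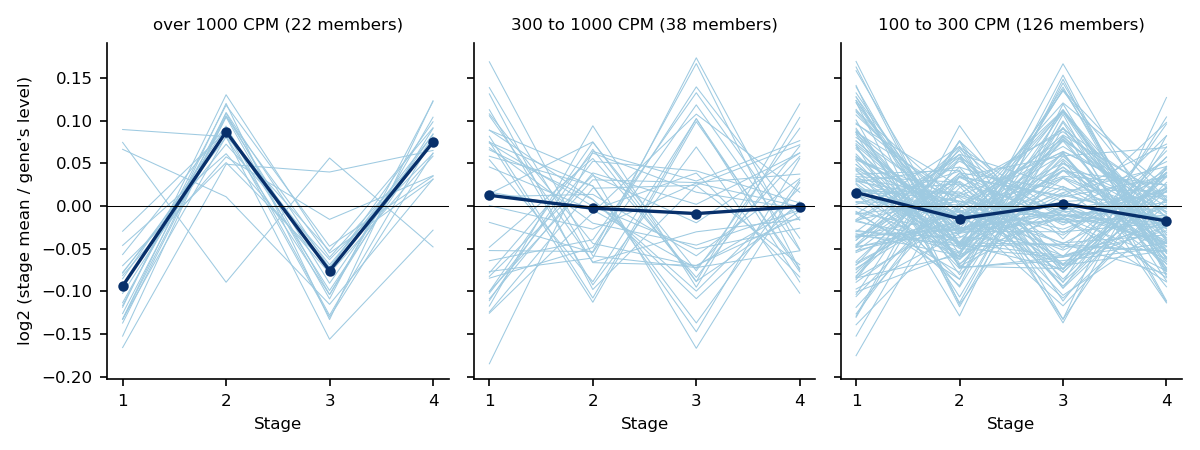
Log2 deviation of each stage mean from the gene's mean level (y axis) by stage (x axis) for the steady genes in 3 bands of level. Thin lines are genes and the thick line is their median. Above 1000 CPM the medians run -0.09, 0.09, -0.08 and 0.07, and in the lower bands they stay within 0.02 of 0.

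The 5 genes of smallest ratio were NCU11228, NCU07747, NCU01800, NCU16833 and NCU09539, at 1.02 to 1.03. NCU11228 (chromosome I, 3445548 to 3449548) was at 106, 106 and 99.3 CPM in stage 1, 99.0, 100.3 and 108 CPM in stage 2, 103, 107 and 96.5 CPM in stage 3, and 101, 99.2 and 109 CPM in stage 4. Its 12 libraries stayed within a ratio of 1.13. NCU01800 had nearly equal stage means as well, yet its stage 3 libraries were at 286, 227 and 286 CPM. Of all 186 genes, 33 kept their 12 libraries within 1.2, 178 within 1.5, and 8 went beyond, with a median of 1.26.

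The spread between replicates was set against the spread between stages. The coefficient of variation (CV) within a stage, taken as the median over the stages, had a median of 4.50% over the steady genes and 4.54% over the other abundant genes. By stage it was 7.84%, 2.52%, 6.05% and 4.20% in the steady genes and 6.96%, 2.53%, 6.11% and 4.32% in the others. The CV between the 4 stage means had a median of 5.40% in the steady genes, a value that the rule bounds, and 23.1% in the others. In 82 of the 186 genes it was below their own median within-stage CV. The 2 measures are unlike, since a stage mean averages 3 libraries and varies less than a single library. The count therefore does not show that the stages differed no more than the replicates. The tightest replicates were those of NCU00114, NCU04337 and NCU07954. NCU04337 stood at 161 to 167 CPM in stage 1, 167 to 168 CPM in stage 2, 182 to 186 CPM in stage 3 and 163 to 171 CPM in stage 4, and its stage 3 libraries were above all others. The widest were his-3 (13.7%), NCU05791 (13.1%) and iap-1 (12.4%).

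**Figure D4:**
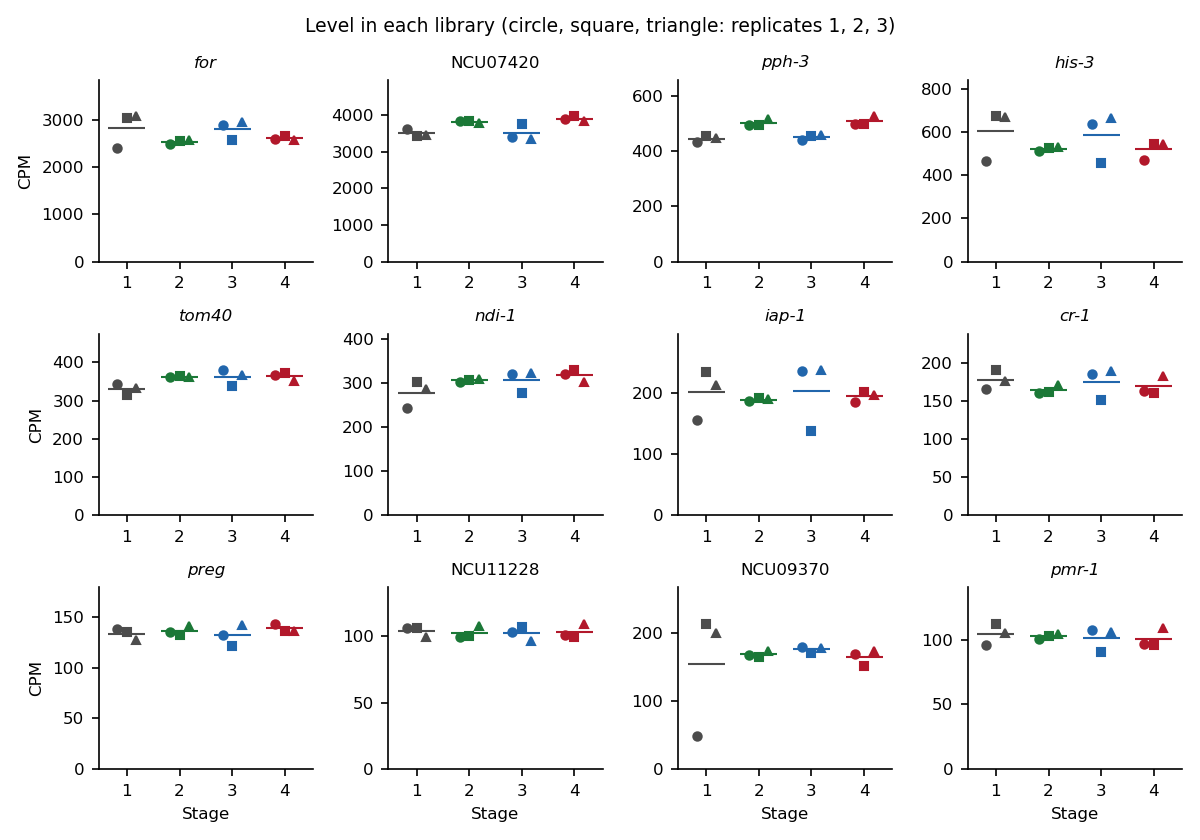
Level in CPM (y axes, starting at 0) in each of the 12 libraries, by stage (x axes), for 12 steady genes; symbols are replicates and horizontal lines stage means. In NCU09370 stage 1 replicate 1 stands at 49.0 CPM against 199 and 213 CPM in the other stage 1 libraries, and in iap-1 and his-3 replicate 1 of stage 1 and replicate 2 of stage 3 are low.

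NCU09370 (chromosome I, 3545195 to 3550304), singled out after its values were seen, met the rule with stage 1 replicate 1 and missed it without. It was at 49.0, 213 and 199 CPM in stage 1 and between 152 and 179 CPM in the 9 later libraries. Without stage 1 replicate 1 its stage 1 mean was 206 CPM and its ratio 1.25, past the limit. Its 12 libraries spanned a ratio of 4.34. Without that library 31 of the 186 genes missed the rule, among them NCU01614, whose ratio was then 1.35.

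Stage 1 replicate 1 held the highest value of 46 steady genes and the lowest of 28, and stage 3 replicate 2 the lowest of 42. In both libraries the deviation of a gene from its stage went with the length of its genomic span. Over the 186 genes, Spearman's rank correlation between span and deviation was -0.72 in stage 1 replicate 1 and -0.52 in stage 3 replicate 2, against 0.75 and 0.52 in the other stage 1 libraries and 0.46 and 0.51 in the other stage 3 libraries. The deviations within a stage sum to 0 in each gene, so these values are not independent. The 22 steady genes shorter than 1500 bp had a median log2 deviation of 0.16 in stage 1 replicate 1, and the 44 longer than 4000 bp had -0.16. In stage 3 replicate 2 these medians were 0.12 and -0.10. The other 986 abundant genes with a span showed correlations of -0.62 and -0.40 in the same libraries. In the remaining stages the size of the correlation ran up to 0.68, with medians in the short and long genes of at most 0.08 from 0. The share of ribosomal RNA was 7.10% in stage 1 replicate 1 and 2.44% and 3.07% in the other stage 1 libraries, and its part in these deviations was not tested.

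**Figure D5:**
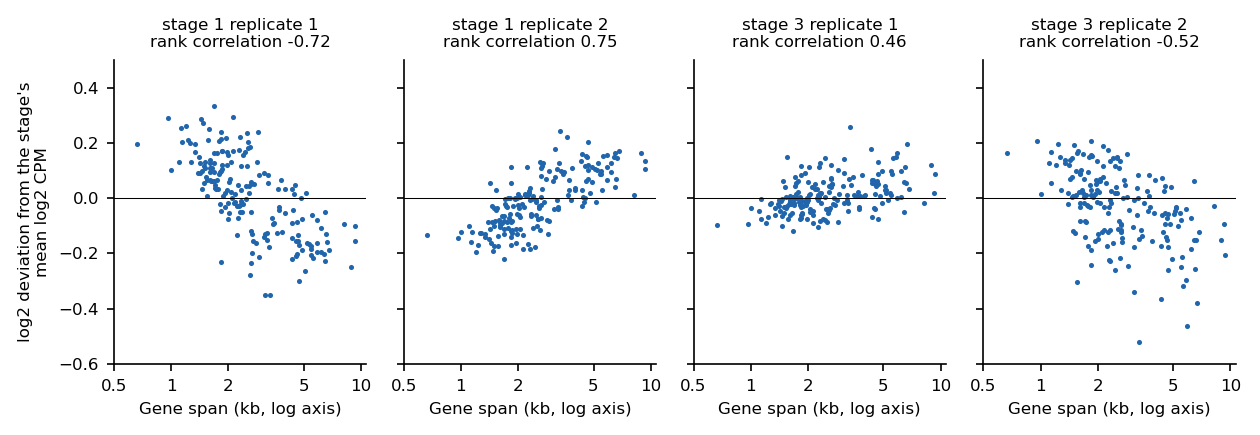
Log2 deviation of each steady gene from its stage's mean log2 CPM (y axis) against the length of its genomic span (x axis, kb, log scale) in 4 libraries. Long genes lie low in stage 1 replicate 1 (rank correlation -0.72) and stage 3 replicate 2 (-0.52) and high in stage 1 replicate 2 (0.75) and stage 3 replicate 1 (0.46); 2 points lie outside the axis.

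The steady genes together took 9.15% ± 0.248 of the counts in stage 1, 9.72% ± 0.145 in stage 2, 9.19% ± 0.154 in stage 3 and 9.70% ± 0.107 in stage 4 (SD, n = 3). The range over the 12 libraries was 8.92% to 9.82%. On the scale of the rule 63, 32, 55 and 36 of the genes were highest in stages 1 to 4, and 59, 40, 59 and 28 were lowest there. With edgeR's trimmed mean of M-values (TMM), a scaling in which most genes are taken not to change, 105, 25, 26 and 30 were highest and 13, 42, 105 and 26 lowest, so the order of the stages within the steady band depended on the scaling. The mean ratio of the TMM library size to the total of the rule was 0.953, 1.00, 1.04 and 1.00 in the 4 stages.

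On that TMM scale the median log2 change of the 186 genes was -0.09 from stage 1 to 2, -0.06 from stage 2 to 3, 0.06 from stage 3 to 4 and -0.08 from stage 1 to 4. The medians over all genes tested were 0.01, 0, -0.0015 and 0.01, and those over the other abundant genes were -0.33, -0.03, 0.03 and -0.34. With the totals of the rule the medians over all genes were 0.09, 0.05, -0.05 and 0.09. There the 4 medians of the steady genes were within 0.02 of 0. The rule chose the genes on this scale and so bounds these medians, and nothing is read from them.

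The joint edgeR test over the stages called 74 of the 186 genes (39.8%), beside 84.3% of all 8330 genes tested and 95.8% of the other abundant genes. The rule used these stage means, so nothing is read from the difference. Between stages 1 and 2, 50 were called (5 higher and 45 lower, beside 77.3% of all genes, 39.4% higher and 37.9% lower). Between stages 2 and 3, 30 were called (4 higher and 26 lower, beside 39% of all genes, 20.8% higher and 18.2% lower), and between stages 3 and 4, 32 (27 higher and 5 lower, beside 39%, 18.2% higher and 20.8% lower). Over the whole course 53 were called (6 higher and 47 lower, beside 77.7%, 39.5% higher and 38.2% lower). The called changes had absolute log2 values of 0.13 to 0.33, the median SE was 0.08, and 97 genes were called in none of these tests. The joint count was 48 without stage 1 replicate 3 and 49 without stage 3 replicate 1. The count between stages 1 and 2 was 31 without stage 1 replicate 3 and 27, 29 and 32 without stage 2 replicates 1, 2 and 3. Between stages 2 and 3 it was 53 without stage 1 replicate 1, 17 without stage 2 replicate 2 and 16 without stage 3 replicate 1. Between stages 3 and 4 it was 56 without stage 1 replicate 1 and 18 without stage 3 replicate 1, and over the whole course it was 34 and 33 without stage 4 replicates 2 and 3.

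Steadiness held for different genes as the settings of the rule changed. Of the 186 genes, 135 also met the rule with TMM library sizes, 104 with DESeq2 size factors, and 86 when every row was counted in the totals. Without single libraries, 155 to 185 of them met it. A core of 57 genes met it under every scaling tried, with medians in place of means, and without each library in turn. Of the 57, 9 have symbols, and they are tom40, tim23, tim14, ndi-1, cr-1, stk-10, preg, crf2-1 and ff-1. The kinase gene stk-10 had stage means of 293 ± 9.39, 288 ± 8.87, 314 ± 12.3 and 292 ± 2.27 CPM (SD, n = 3). The gene ff-1 is known for its need in female fertility.

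By position, the steady genes were found on all 7 chromosomes, from 11.9% of the abundant genes of chromosome IV to 18.8% of those of chromosome V. Their spans had a median of 2339 bp, against 2644.5 bp for the other abundant genes and 2127 bp for all protein-coding genes. The span of 69 of the 186 (37.1%) overlapped a neighbouring gene, against 226 of the 987 other abundant genes (22.9%) and 22.9% of all protein-coding genes. This excess was present between 100 and 300 CPM (41.3% against 21.6%) and smaller in the bands above (23.7% against 21.8%, and 36.4% against 29.9%). These shares were not tested, and reads from overlapping genes could have been split between them by the counting. Of the 186, 5 pairs were neighbours, among them NCU03624 with NCU03625, whose spans overlap by 439 bp.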

How the data were processed

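Per the labels and methods, the authors made stranded TruSeq libraries from oligo(dT)-selected RNA, aligned reads with HISAT2 2.1.0 to the OR74A genome, and derived counts with StringTie 1.3.3b after CASAVA 1.8.2. The deposited values are estimated counts per gene, computed by the authors from coverage and read length. They were whole numbers. The alignment was set for reads antisense to the transcript, and no strand option of the counting itself is given in the sources used here. A second deposited file holds the authors' own comparison (levels relative to the lowest stage, with intervals) and was not used.

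CPM was computed as the count over the column total without 2 ribosomal RNA rows (NCU17319 and NCU15719). Intervals over counts would cover counting error only, and at these depths 3 counts equal 0.0417 to 0.0698 CPM. Tests used edgeR 4.0.16 (filterByExpr, minimum count 10; TMM; quasi-likelihood F test; Benjamini-Hochberg over 8330 genes; threshold 0.05) in R 4.3.3, with all 12 libraries in 1 fit. DESeq2 1.42.0, other scalings, limits and single left-out libraries were alternatives. The scripts were tested on simulated data in which few genes changed, unlike the 84.3% called jointly here. That test does not bear on how well the scaling suits these data.

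Symbols, spans and chromosomes came from the RefSeq gene table of assembly NC12, which matched 10590 of 10592 IDs. Library deviations used log2(CPM + 0.01). The steady genes and the gene lists were chosen with earlier results of these data known. Named were the genes of highest level, smallest ratio, smallest and largest CV, those next to either limit, up to 15 with symbols by level, and the reference genes. The other genes with symbols and partners of named genes were added after their values were seen. Function groups rest on symbols alone, and promoter and protein features were not analysed here. Of the 32 steady genes with symbols, 31 are named, and 1 is not reported here.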

Additional observations from a re-analysis of the deposited data

How the results depend on the processing

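The number of steady genes was 189 with TMM sizes, 184 with DESeq2 size factors, 186 without every ribosomal RNA gene and 183 with medians. It was 121 with column sums of every row, in which 37.7% of stage 3 replicate 2 was ribosomal RNA. With ratio limits of 1.1, 1.3 and 1.5 it was 68, 353 and 571, with floors of 50 and 200 CPM it was 363 and 82, over stages 2 to 4 it was 1107 and over stages 1, 2 and 4 it was 316. Of the 186 genes, 104 were kept with DESeq2 size factors, 86 with sums of every row, 68 at a limit of 1.1 and 82 at a floor of 200 CPM. DESeq2 called more of them, 113 in the joint test, 87 from stage 1 to 2, 46 from stage 2 to 3 and 83 over the whole course. The median log2 change between stages 1 and 2 was -0.14 with DESeq2 size factors and -0.012 with the totals of the rule, and between stages 1 and 4 it was -0.13 and -0.0043. For the later steps it was -0.0069 and 0.0098 with the totals of the rule. The cause of these shifts beyond the scaling was not tested. The order of stages above 1000 CPM, the choice of 3 of the 4 stages and the contrast of stages 4 and 2 were added after seeing the data.

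Leaving out single libraries gave 173 to 206 steady genes and kept 155 to 185 of the 186. The joint count ran from 48 to 95, and the counts of called steady genes from 27 to 64 (stages 1 and 2), 16 to 53 (2 and 3), 18 to 56 (3 and 4) and 33 to 63 (1 and 4). All genes called jointly ran from 6788 to 7024. The order of stages above 1000 CPM was seen in 18 to 20 of 22 genes, and in 15 with DESeq2 size factors. The median log2 changes ran from -0.083 to -0.050, -0.11 to -0.031, 0.027 to 0.12 and -0.084 to -0.053. Of 1105 ratios recomputed for 65 named genes, 161 moved by more than the spread between replicates.

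Same-numbered deviations correlated between -0.31 and 0.21, with 5 of 18 above 0.1, which does not show whether replicate numbers pair the libraries. Over the abundant genes and among the stage 4 libraries alone, each stage 2 library lay nearest to the one of its own number. These median absolute log2 differences were 0.0426, 0.0481 and 0.0230 for replicates 1, 2 and 3. For stage 2 replicate 2 the margin was small, with 0.0488 to stage 4 replicate 3. It was also nearer to stage 3 replicate 1 (0.146) than to stage 3 replicate 2 (0.185). With a replicate block, 69 steady genes were called jointly, 50, 26 and 28 in the 3 steps and 54 between stages 1 and 4, and 6945 of all genes were called jointly.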

Other observations

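Steadiness did not stop at the floor of 100 CPM. Below it, 554 genes had stage means within a ratio of 1.2, and among the 1148 genes with a lowest stage mean of 50 to 100 CPM, 177 did (15.4%), close to the 15.9% above the floor. This range was looked at after the data had been seen.

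Of 177 genes listed by the study in clusters for secondary metabolites, 16 were abundant and 3 were steady, beside 15.9% of all abundant genes. NCU08410, of cluster 4, had stage means of 170, 175, 160 and 175 CPM. NCU04806, of cluster 13, had 164, 155, 166 and 154 CPM. The acyl carrier protein gene acp-1, of cluster 15, had 224, 221, 229 and 203 CPM.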
